A study of Homo sapiens with 4 samples.

Results

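This account covers 10 genes that encode erythroid transcription factors in K562 cells, a human line from chronic myelogenous leukemia that keeps an erythroid program. The genes are *GATA1*, *GATA2*, *ZFPM1*, *TAL1*, *LMO2*, *KLF1*, *NFE2*, *GFI1B*, *MYB* and *RUNX1*, and were found by gene symbol. Of the 10, 7 have a row among the 10147 genes of the table, and *ZFPM1*, *GFI1B* and *RUNX1* were not analysed here. The cells were edited to carry a degradation tag (dTAG) at the N-terminus of IWS1, a Pol II elongation factor, and every library, controls included, comes from such cells. In the dIWS1 group the ligand dTAG7 was given at 500 nM for 1 h to remove IWS1, and the control group received the solvent DMSO for the same time. The labels give 2 libraries for each group. RNA synthesis was measured by TT-seq, in which 4-thiouridine (4sU, 500 µM for 5 min) marks the RNA made during a short pulse, so the values count new RNA and not the amount of stored mRNA or protein. The methods name no number of edited clones behind the line, and no untagged cells treated with dTAG7 are among these samples, so a direct effect of the ligand and the loss of IWS1 cannot be told apart.

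Erythroid identity rests on a small set of DNA binding proteins that work in shared complexes. GATA1 and GATA2 are zinc finger proteins that read GATA motifs, with GATA2 active in progenitors and GATA1 in maturing red cells, and ZFPM1 (FOG1) is their cofactor. TAL1 (SCL) is a basic helix-loop-helix protein that is joined to GATA factors by LMO2, a LIM domain protein that bridges them without touching DNA. KLF1 activates the adult beta-globin gene through CACCC boxes, and NFE2 (p45) pairs with small MAF proteins at globin control regions. GFI1B is a repressor, and MYB and RUNX1 are factors of blood progenitors that are lowered or exchanged as red cells mature.

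Many of these genes are themselves known targets of the GATA1 and KLF1 networks, so the DNA just before their start sites is shown for factors with low and with middling log2 changes, a choice made with their values known. The sequences are the 250 bases before the RefSeq start site (GRCh38.p14), written 5′ to 3′ on the strand of the gene, with capitals for GATAA or its reverse complement TTATC (GATA core) and for CACCC or its reverse complement GGGTG (KLF core). After IWS1 depletion the log2 changes of *KLF1*, *TAL1* and *MYB* lay below that of the median gene, and those of *GATA1* and *GATA2* lay close to it or a little above it, though of these 5 only *TAL1* and *MYB* passed the test against the median gene. The windows are chr19:12887202-12887451 (minus strand) for *KLF1*, chr1:47232336-47232585 (minus strand) for *TAL1*, chr6:135181058-135181307 (plus strand) for *MYB*, chrX:48786340-48786589 (plus strand) for *GATA1* and chr3:128493202-128493451 (minus strand) for *GATA2*.
KLF1: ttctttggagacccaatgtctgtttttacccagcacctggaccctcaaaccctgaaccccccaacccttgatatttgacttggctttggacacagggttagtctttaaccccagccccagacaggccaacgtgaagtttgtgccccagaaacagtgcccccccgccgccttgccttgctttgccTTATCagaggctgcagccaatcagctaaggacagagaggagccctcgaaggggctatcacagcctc
TAL1: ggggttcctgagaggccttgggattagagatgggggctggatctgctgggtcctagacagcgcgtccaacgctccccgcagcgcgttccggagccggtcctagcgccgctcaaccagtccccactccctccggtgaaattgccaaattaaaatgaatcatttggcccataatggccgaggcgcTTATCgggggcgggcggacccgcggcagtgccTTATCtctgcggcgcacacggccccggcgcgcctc
MYB: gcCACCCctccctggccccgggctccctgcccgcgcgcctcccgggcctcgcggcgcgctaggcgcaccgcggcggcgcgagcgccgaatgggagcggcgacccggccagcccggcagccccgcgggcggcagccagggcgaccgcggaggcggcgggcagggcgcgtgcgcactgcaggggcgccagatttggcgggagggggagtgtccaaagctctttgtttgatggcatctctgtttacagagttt
GATA1: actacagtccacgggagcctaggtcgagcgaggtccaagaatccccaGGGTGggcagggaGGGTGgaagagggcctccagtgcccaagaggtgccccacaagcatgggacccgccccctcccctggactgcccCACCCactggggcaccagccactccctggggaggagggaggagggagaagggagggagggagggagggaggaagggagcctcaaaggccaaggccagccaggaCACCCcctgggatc
GATA2: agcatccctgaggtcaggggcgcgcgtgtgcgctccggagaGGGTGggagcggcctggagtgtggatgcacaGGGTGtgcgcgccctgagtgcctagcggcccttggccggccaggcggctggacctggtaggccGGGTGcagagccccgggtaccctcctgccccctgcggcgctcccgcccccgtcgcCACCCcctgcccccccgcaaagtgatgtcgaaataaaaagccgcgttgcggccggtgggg

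The GATA core was found 1 time in the *KLF1* window, starting 66 bases before the start site, and 2 times in the *TAL1* window, at 67 and 35 bases before it. It had no match in the windows of *GATA1*, *GATA2* and *MYB*. The KLF core was found 4 times each for *GATA1* and *GATA2* and 1 time for *MYB*, with no match for *KLF1* and *TAL1*. Whether either core goes with the log2 changes was not tested. Of 27305 RefSeq promoter windows of the same length, 21.0% hold the GATA core and 53.7% the KLF core, and among the 8015 windows matched to genes tested here the shares are 12.2% and 56.7%. The E-box CANNTG, the kind of site TAL1 binds, was found 1 time each for *TAL1*, *KLF1* and *GFI1B*, and in 62.2% of all windows and 52.4% of those of genes tested here. RefSeq windows were at hand for 8 of the 10 factors, and not for *LMO2* and *NFE2*. These matches are letters in a window, and no binding was measured here.

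The deposited table holds a mean normalized read count per gene over the library columns, which could be split back into whole reads per column for 10135 of the 10136 genes with a mean above 0. The split gave 1 control column that enters every mean 2 times and 2 different dIWS1 columns, so the values entered for the control libraries were identical and were counted as 1 sample. The control column held 29697189 reads in genes and the dIWS1 columns 20599922 and 20807156. How far separate control cultures lie apart can therefore not be given, and p-values rest on the distance between the dIWS1 columns. Over the 8291 genes with at least 200 control reads, the log2 ratio of column 1 to column 2 after scaling had a median of -0.12 and an SD of 0.12. *IWS1* itself, whose protein and not its gene is the target, had 3684 reads in the control, 2334 in dIWS1 column 1 and 2427 in column 2, a log2 change of -0.55 (adjusted p = 0.000881 from limma voom). In the same fit 65.0% of all genes were called lower. Relative to the median gene *IWS1* was at -0.13 and did not pass the threshold (adjusted p = 0.201 from limma voom).

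In the control, *NFE2* and *MYB* were made at the highest rate per length of the 7 factors. Levels are given as spike-in scaled reads per kb of RefSeq gene span, since TT-seq reads fall on introns as well as exons, and their order depends on this length. *NFE2*, a gene of 8.9 kb on chromosome 12 (54292111 to 54301015, minus strand, 3 exons), stood at 518 reads per kb in the control, 480 in dIWS1 column 1 and 504 in column 2. *MYB*, a gene of 37.9 kb on chromosome 6 (135181308 to 135219172, plus strand, 16 exons), stood at 510, 314 and 328 reads per kb in the same order. Their control levels could not be separated, with a *MYB* to *NFE2* ratio per length of 0.984 (95% interval 0.953 to 1.02, exact binomial, counting error only).

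*GATA1* followed at 192 reads per kb in the control, 155 in dIWS1 column 1 and 148 in column 2. It spans 7.72 kb of the X chromosome (48786590 to 48794311, plus strand, 6 exons). *LMO2*, with 33.5 kb on chromosome 11 (33858576 to 33892076, minus strand, 6 exons), stood at 136, 96.4 and 100.0 reads per kb. Exons of its canonical transcript cover 6.21% of that span, against 58.0% for *KLF1*.

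The other factors lay near 100 reads per kb in the control. *TAL1* (chromosome 1, 47216290 to 47232335, minus strand, 5 exons, 16.0 kb) stood at 110 reads per kb, *KLF1* (chromosome 19, 12884422 to 12887201, minus strand, 3 exons, 2.78 kb) at 105 and *GATA2* (chromosome 3, 128479422 to 128493201, minus strand, 6 exons, 13.8 kb) at 90.3. *TAL1* and *KLF1* could not be separated (ratio per length 1.04, interval 0.923 to 1.19), and *KLF1* was above *GATA2* by a factor of 1.16 (interval 1.02 to 1.32). *GATA1* was above *LMO2* by 1.41 (1.33 to 1.5) per length, although by reads it was at 0.325 of *LMO2*, and *LMO2* above *TAL1* by 1.24 (1.17 to 1.31). These intervals cover the counting of reads in 1 control library, and the spread between control cultures is not in them. In the dIWS1 columns *KLF1* had 59.0 and 63.4 reads per kb and *GATA2* had 75.8 and 74.8. The ratio of *KLF1* to *GATA2* per length was 0.778 (0.656 to 0.919) in column 1, so that *KLF1* was the lower of the pair there. In column 2 it was 0.847 (0.713 to 1.0), an interval that reaches equal levels.

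**Figure D1:**
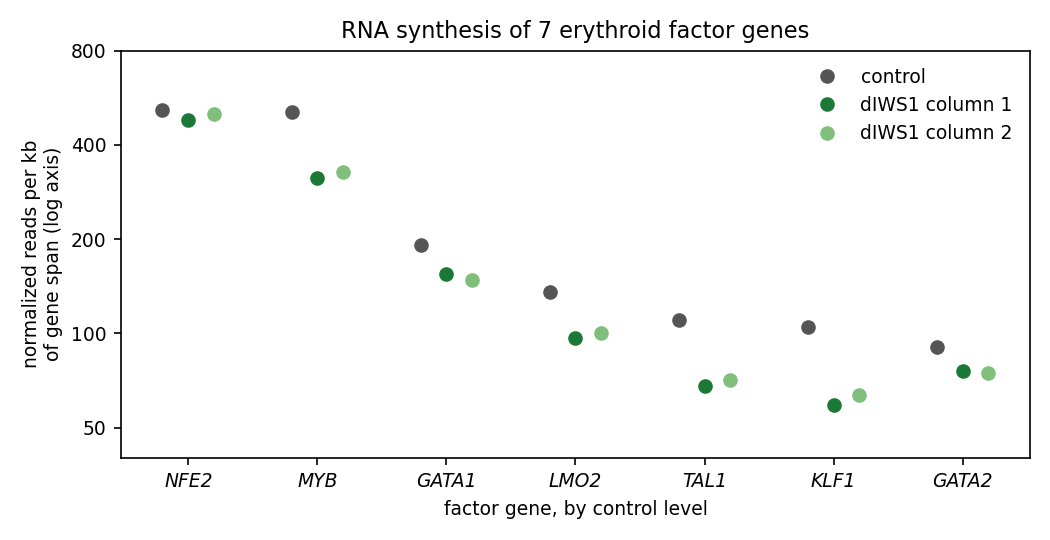
Spike-in scaled reads per kb of gene span (log axis) for the 7 factor genes in the control column and in each dIWS1 column; each point is 1 library column. *NFE2* and *MYB* lead in the control at 518 and 510, and in the dIWS1 columns *MYB* is at 314 and 328 and *NFE2* at 480 and 504.

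After 1 h of dTAG7, synthesis of 5 of the 7 factors was called lower and none higher. *KLF1*, *MYB* and *TAL1* fell most, to 58.2%, 62.9% and 63.2% of the control, and *LMO2* and *GATA1* fell to 72.2% and 78.8%. *GATA2* was at 83.4% and *NFE2* at 94.9% of the control, and neither passed the threshold. The calls are those of limma voom, with recovered reads as input and 1 control sample, at a Benjamini-Hochberg adjusted p under 0.05 over 10006 genes. In this fit 65.0% of all genes were called lower and 0.13% higher, and among the 8291 genes with at least 200 control reads, as all 7 factors have, 67.4% were called lower. The share of factors called lower, 71.4%, is therefore near that of all genes. No factor was above the control at an unadjusted p under 0.05 or with limma-trend, a fit without precision weights, which called 4 factors lower. Of all 10006 genes limma-trend called 5487 lower and 8 higher, and 18 were higher at an unadjusted p under 0.05 in the voom fit. A lack of higher factors is therefore shared with nearly all genes. The median log2 change was -0.47 over the factors and -0.42 over all genes (quartiles -0.6 and -0.26).

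The GATA factors had smaller log2 changes than *LMO2*, *TAL1*, *MYB* and *KLF1*, with *NFE2* alone closer to the control. The step from *GATA1* to *LMO2* was not clear in both columns. Their *LMO2* to *GATA1* read ratio was 3.07 in the control (95% interval 2.9 to 3.26, counting error only). It was 2.69 (2.52 to 2.88) in dIWS1 column 1 and 2.94 (2.74 to 3.16) in column 2, where the interval overlaps that of the control. *GATA1* had 1498 reads in the control, 1191 in dIWS1 column 1 and 1049 in column 2, or 1484, 1199 and 1141 after scaling. Both dIWS1 columns lay below the control, and the log2 change was -0.34 (standard error 0.14, adjusted p = 0.0247 from limma voom). With limma-trend the adjusted p of *GATA1* was 0.0639. *GATA2* had 1256, 1038 and 948 reads, or 1244, 1045 and 1031 after scaling. The dIWS1 values of *GATA2* lay close together and below the control, with a log2 change of -0.26 that did not pass the threshold (95% interval -0.53 to 0.01, adjusted p = 0.0811 from limma voom).

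Of the partners in the TAL1 complex, *TAL1* had a lower log2 change than its bridge *LMO2*. *TAL1* had 1779 reads in the control, 1079 in dIWS1 column 1 and 1049 in column 2, or 1762, 1086 and 1141 after scaling, and its log2 change was -0.66 (standard error 0.14, adjusted p = 2.28e-05 from limma voom). *LMO2* had 4604, 3209 and 3085 reads, or 4560, 3231 and 3355 after scaling, and its log2 change was -0.47 (standard error 0.15, adjusted p = 0.00467 from limma voom). In each library the reads of *TAL1* were compared with those of *LMO2*, which no scaling can move. The ratio was 0.386 in the control (95% interval 0.366 to 0.408) and 0.336 (0.314 to 0.36) and 0.34 (0.317 to 0.365) in the dIWS1 columns, so that it was lower in both by more than the counting intervals.

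*KLF1* and *NFE2*, the activators of late erythroid genes, stood at opposite ends. *KLF1* had the fewest reads of the factors, with 295 in the control, 163 in dIWS1 column 1 and 162 in column 2, or 292.2, 164.1 and 176.2 after scaling. Its log2 change was the lowest of the 7 at -0.78 (standard error 0.15, adjusted p = 2.45e-06 from limma voom). *NFE2* had 4659, 4244 and 4127 reads, or 4615, 4273 and 4489 after scaling. Both dIWS1 values lay just under the control, and its log2 change of -0.08 did not pass the threshold (95% interval -0.37 to 0.22, adjusted p = 0.651 from limma voom). The *NFE2* to *KLF1* read ratio was 15.8 in the control (interval 14.0 to 17.8) and 26.0 (22.3 to 30.6) and 25.5 (21.8 to 30.0) in the dIWS1 columns.

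*MYB*, the progenitor factor, carried more reads than the other factors together. It had 19500 reads in the control, 11812 in dIWS1 column 1 and 11414 in column 2, or 19315, 11893 and 12414 after scaling. The dIWS1 values were close to each other and far below the control, with a log2 change of -0.67 (standard error 0.14, adjusted p = 2.42e-05 from limma voom). Its share of the reads on the 7 factor genes was 58.1% in the control and 52.0% and 52.3% in the dIWS1 columns.

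**Figure D2:**
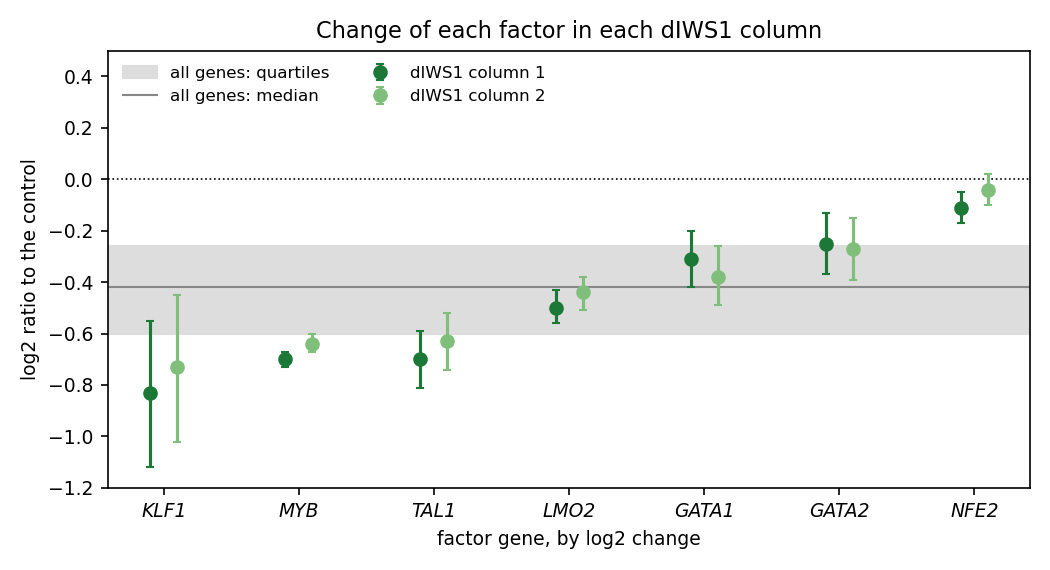
Log2 ratio of each dIWS1 column to the control for the 7 factor genes; points are single columns, bars are 95% exact binomial intervals of the read counts, and the grey band and line give the quartiles and median over 10006 genes. *KLF1*, *MYB* and *TAL1* lie below the band in both columns, from -0.83 to -0.63, and *NFE2* lies above it at -0.11 and -0.04.

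The standard errors near 0.14 were alike for all 7 factors, since the fit pooled the spread of all genes along a trend with read number and used no spread of a gene's own. A part of this spread is the distance of the dIWS1 columns in scale, as the median gene had a log2 ratio of -0.47 in column 1 and -0.37 in column 2. For a single gene, 1 control against 2 dIWS1 values allows no exact permutation p under 0.333. The lone control is assumed in the fit to vary like the dIWS1 columns.

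Since most genes fell, each factor was also compared with the median gene, by moving the library scale so that this gene has a log2 ratio of 0 in each column. Against it *NFE2* was higher, *MYB* and *TAL1* were lower, and 4 factors did not pass the threshold. In this fit 14.9% of all genes were called lower and 15.0% higher (16.5% and 17.7% of genes with at least 200 control reads). *NFE2* stood at 0.35 (standard error 0.08, adjusted p = 6.91e-05 from limma voom), with 0.36 in column 1 and 0.33 in column 2. Of all genes, 93.7% had a lower log2 change than *NFE2*. *MYB* stood at -0.25 (standard error 0.07, adjusted p = 0.00139 from limma voom) and *TAL1* at -0.24 (standard error 0.08, adjusted p = 0.0172 from limma voom). *KLF1* had the lowest value, -0.36 in each column, but with a standard error of 0.15 at this read number it did not pass (95% interval -0.66 to -0.06, adjusted p = 0.0611 from limma voom).

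*LMO2*, *GATA1* and *GATA2* lay near the median gene. *LMO2* was at -0.05 relative to it (95% interval -0.2 to 0.1, adjusted p = 0.677 from limma voom). *GATA1* was at 0.08 (95% interval -0.09 to 0.24, adjusted p = 0.512 from limma voom), and its columns differed, with 0.17 in column 1 and -0.01 in column 2. *GATA2* was at 0.16 (95% interval -0.01 to 0.33, adjusted p = 0.149 from limma voom), with 0.22 and 0.1. The *GATA2* to *GATA1* read ratio was 0.838 in the control (interval 0.777 to 0.904) and 0.872 (0.801 to 0.948) and 0.904 (0.827 to 0.988) in the dIWS1 columns, intervals that overlap.

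**Figure D3:**
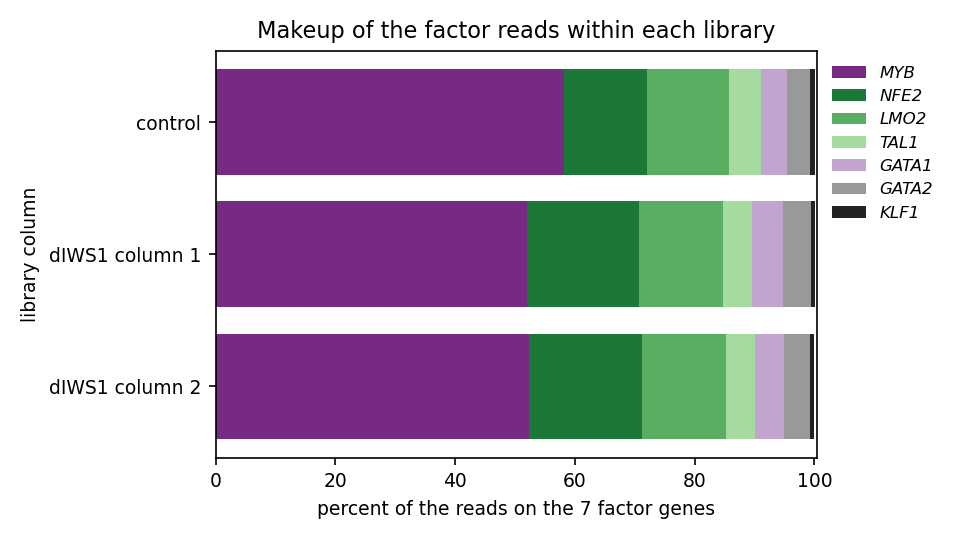
Percent of the reads on the 7 factor genes that fall on each gene, in the control column and in each dIWS1 column; every bar adds to 100 within 1 library, so it does not depend on scaling. The *MYB* part is 58.1% in the control and 52.0% and 52.3% in the dIWS1 columns, and the *NFE2* part is 13.9%, 18.7% and 18.9%.

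Within the libraries, *NFE2* held 13.9% of the factor reads in the control and 18.7% and 18.9% in the dIWS1 columns, and *KLF1* held 0.878%, 0.717% and 0.742%. *LMO2* held 13.7%, 14.1% and 14.1%. The *MYB* to *NFE2* read ratio was 4.19 in the control (interval 4.05 to 4.32) and 2.78 (2.69 to 2.88) and 2.77 (2.67 to 2.87) after depletion. The *MYB* to *TAL1* read ratio was 11.0 in the control (10.4 to 11.5) and 10.9 in both dIWS1 columns, so these genes fell by like factors.

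The factors were also set beside genes of like length, and whether length bears on their changes was not tested. None lies in the longest class (from 64.1 kb, median log2 change -0.49). *NFE2*, *GATA1* and *KLF1* lie in the shortest of 4 equal classes of genes (up to 10.9 kb, 2490 genes), which had a median log2 change of -0.48 (quartiles -0.66 and -0.3), and they hold the highest, the third highest and the lowest value of the 7. In the next class (10.9 to 27.7 kb, median -0.39, quartiles -0.55 and -0.24) *GATA2* was inside the quartiles at -0.26 and *TAL1* below them at -0.66. In the class from 27.7 to 64.1 kb (median -0.34, quartiles -0.51 and -0.21), *LMO2* was inside the quartiles and *MYB* below them.

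**Figure D4:**
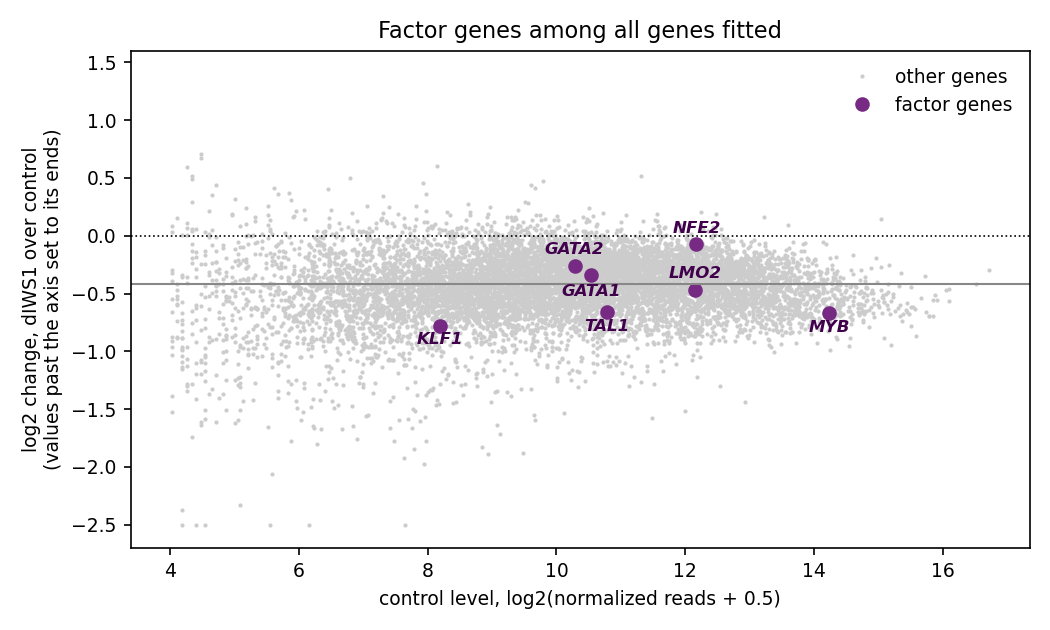
Log2 change (dIWS1 over control) of every gene fitted with a log2 control level of at least 4 against that level, log2(normalized reads + 0.5); grey points are genes, purple points the 7 factors, the grey line is the median of all genes. The factors spread from -0.78 (*KLF1*) to -0.08 (*NFE2*), and *MYB* has the highest level among them.

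The genes nearest to *KLF1* and *NFE2* in their column ratios were looked up among genes with at least 1000 control reads, by Euclidean distance over the 2 dIWS1 columns. Nearest to *KLF1* were *DOCK6* (distance 0.0048), *MTA1* (0.0059) and *LEMD2* (0.0087), each with a log2 change of -0.78. Nearest to *NFE2* were *ACADM* (0.0068), *SGK1* (0.0079) and *UBE2J1* (0.0084), with log2 changes of -0.08, -0.08 and -0.07. All these points share the control column and the scaling. The distances are far smaller than the 95% counting intervals of the *KLF1* ratios, -1.12 to -0.55 in column 1 and -1.02 to -0.45 in column 2. Those of *NFE2* are also wider than its distances, -0.17 to -0.05 and -0.1 to 0.02. Which genes lie nearest is therefore not resolved by these reads.

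The fitted genes that lie next to a factor on each side were read as well, a choice made after values were seen. Of 14 such genes 8 were called lower and 0 higher, against 65.0% of all genes lower, and their median log2 change was -0.36. *NFE2* was above both of its neighbours, *HNRNPA1* (-0.40, 5.02 kb away) and *ZNF385A* (-0.38, 68.1 kb away). *TAL1* was below its neighbours *STIL* (-0.22, 17.8 kb away) and *EFCAB14* (-0.24, 497 kb away), and *LMO2* was below *FBXO3* (-0.18, 84.1 kb) and *CAPRIN1* (-0.20, 160 kb). *MYB* was below *AHI1* (-0.35, 64.4 kb) and *SGK1* (-0.08, 863 kb). *KLF1* was below *DNASE2* (-0.17), which lies 2.97 kb away, and below *GCDH* (-0.49), 3.93 kb away on the other side. *GATA1* was above *SUV39H1* (77.6 kb away) and *HDAC6* (7.09 kb away), both at -0.55, and *GATA2* was above *EEFSEC* (-0.84, 53.2 kb) and *LOC90246*, which had 23 control reads (-2.6, 14.6 kb). The differences between neighbours were not tested.

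The share of partners and cofactors called lower was close to that of all genes. The list of 34 genes covers complex members, corepressors, KLF and MAF relatives and signal-driven factors, and 31 were tested. Of these 20 were called lower (64.5%), 0 higher and 11 neither, with a median log2 change of -0.45. None was higher than the control at an unadjusted p under 0.05 or with limma-trend, which called 19 lower (5487 of all 10006 genes). *CBFA2T3* (ETO2), a corepressor bound to TAL1 complexes, fell most, with 24135 reads in the control and 11775 and 11767 in the dIWS1 columns (log2 change -0.96, standard error 0.14, adjusted p = 9.42e-10 from limma voom). It was followed by *ETV6*, a repressor of the ETS family, at -0.70 and *TCF3*, which encodes the E-protein partners of TAL1, at -0.67.

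At the other end of the partner list, *KLF10*, a repressor induced by TGF-beta, had 406 reads in the control and 411 and 460 in the dIWS1 columns. Its log2 change of 0.18 did not pass the threshold (adjusted p = 0.215 from limma voom), and relative to the median gene it was higher, at 0.60 (adjusted p = 1.01e-05 from limma voom). *HHEX*, a homeobox factor of blood progenitors, was at -0.09, and *HDAC2*, a histone deacetylase, at -0.18. The small MAF partners of NFE2 were called lower, *MAFK* at -0.61 and *MAFG* at -0.53, where *NFE2* itself was at -0.08. Relative to the median gene neither passed, with *MAFK* at -0.19 and *MAFG* at -0.11 (adjusted p = 0.22 and 0.369 from limma voom). *LDB1*, which joins LMO2 complexes at distant sites, was at -0.42, the median of all genes. Relative to the median gene 6 of the 31 partners were called lower and 5 higher, near the 14.9% and 15.0% of all genes.

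Of 42 erythroid target genes 29 were tested, and 20 were called lower (69.0%), 0 higher and 9 neither, near the 65.0% of all genes called lower, with a median log2 change of -0.49. Relative to the median gene 5 targets were called lower, 2 higher and 22 neither, where 14.9% and 15.0% of all genes were. None was higher than the control at an unadjusted p under 0.05 or with limma-trend, which called 18 lower (5487 of all 10006 genes). The largest falls were those of *HBZ*, the embryonic zeta-globin gene (173 reads in the control, 92 and 82 after depletion, log2 change -0.91), *UROS*, an enzyme of heme synthesis (-0.87), and *GYPC*, which encodes glycophorin C of the red cell membrane (-0.76). Relative to the median gene these were called lower too, at -0.49, -0.45 and -0.33 (adjusted p = 0.0463, 0.00298 and 0.000134 from limma voom, in the same order). The fetal globin gene *HBG1* had 157, 165 and 162 reads and *HBG2* had 129, 107 and 150, with log2 changes of 0.14 and 0.04 that did not pass the threshold (adjusted p = 0.458 and 0.825 from limma voom). Relative to the median gene *HBG1* was called higher at 0.56 (adjusted p = 0.0104 from limma voom), and *HBG2* at 0.47 did not pass (adjusted p = 0.0562 from limma voom). These genes are near-identical copies and only uniquely aligned reads were counted, so reads could be lost or split between them. *ALAD*, an enzyme of heme synthesis, was at -0.20 and did not pass.

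Other enzymes of heme synthesis were called lower as well, as were 65.0% of all genes. Among them were *PPOX* at -0.67, *UROD* at -0.50, *ALAS2*, the erythroid form of the first enzyme of the pathway, at -0.39, and *CPOX* at -0.35. Relative to the median gene *PPOX*, *UROD*, *ALAS2* and *CPOX* did not pass (adjusted p = 0.138, 0.519, 0.862 and 0.613 from limma voom, in the same order), unlike *UROS*. *FECH*, which puts iron into the ring, was at -0.31 and, like *ALAD*, did not pass (adjusted p = 0.0627 from limma voom). The embryonic globin gene *HBE1* had 189 reads in the control and a log2 change of -0.64 (adjusted p = 0.000642 from limma voom). *TFRC*, the receptor that takes up transferrin iron, had 16164 control reads and a log2 change of -0.24 that did not pass (adjusted p = 0.127 from limma voom). *BCL2L1*, a survival gene of erythroblasts, was called lower at -0.71, and also relative to the median gene at -0.29 (adjusted p = 0.000293 from limma voom).

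**Figure D5:**
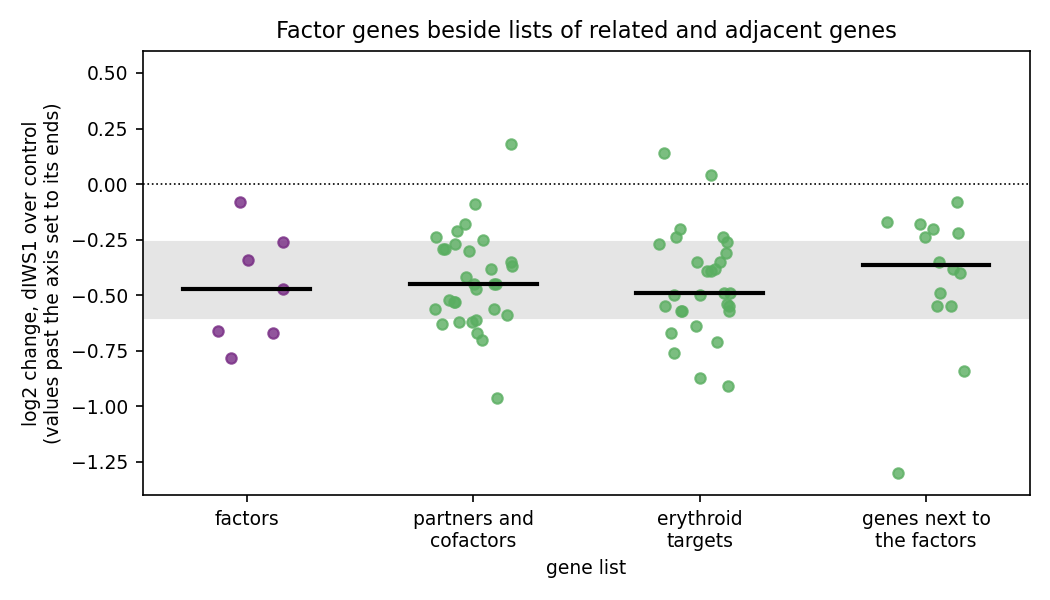
Log2 change (dIWS1 over control) of the 7 factors, 31 partners and cofactors, 29 erythroid targets and 14 genes next to the factors; points are genes, bars are medians, and the grey band spans the quartiles of all genes, -0.6 to -0.26. The medians are -0.47, -0.45, -0.49 and -0.36, all within the band, and 1 gene next to *GATA2* with 23 control reads lies past the axis at -2.6.

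The labelled cell type was checked against marker lists. Of 10 erythroid markers 9 were tested, with 18.3 (*EPOR*) to 488 (*TFRC*) reads per kb in the control. Of the lists for other blood cells, 3 of 10 myeloid genes (*SPI1*, *CEBPA* and *CEBPB*), 1 of 8 megakaryocyte genes (*MEIS1*), 2 of 8 lymphoid genes (*TCF7* and *LEF1*) and 2 of 5 stem and progenitor genes (*MECOM* and *KIT*) were tested, the others having no row here. *SPI1*, which encodes the myeloid factor PU.1 that opposes GATA1, had 889 reads in the control (37.2 reads per kb) and 623 and 545 after depletion. The part of any change in cell makeup in these values was not tested, and in bulk libraries fewer cells of a type and less RNA per cell cannot be told apart.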

How the data were processed

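TT-seq of edited K562 cells was analysed in 2 groups, control (DMSO) and dIWS1 (dTAG7), with 2 labelled libraries each. Read pairs were mapped by the authors to GRCh38 plus the spike-ins (STAR 2.6.0, unique hits), counted per RefSeq gene by strand, and limited, as the methods state, to genes that overlap no other and have a median above 10 reads per kb. By the RefSeq spans used here some genes lie below that (*MEIS1* at 5.43 in the control), so the authors' lengths or values may differ. The authors deposited 1 signal column, a gene's mean normalized count, for which spike-in size factors from DESeq2 had been applied to each library. The deposited log2 fold changes (dIWS1 over control), standard errors, Wald statistics, p-values and adjusted p-values are the authors' comparison and are not reported. The fold change column served only to tell which recovered column is the control and to narrow the search for reads.

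Steps of 0.495, 0.252 and 0.272 between low means gave size factors of 1.01 (control, entered 2 times), 0.993 and 0.919. Each mean was written as whole multiples of the 3 steps. By the mean alone, 6 of the 7 factors had 1 split and *MYB* had 2, settled by the direction column. The recovered log2 ratios of 4929 genes with a mean above 1000 came within 0.00133 of that column. At these means the search was limited to a narrow band around that column, set with the control entered 2 times. This closeness is therefore no independent check of the split or of how often the control entered. The dIWS1 columns carry no replicate number.

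Genes with at least 10 reads over the columns (10006) were fitted with limma voom (limma 3.58.1, R 4.3.3), the control counted once. Recovery and fit were tested on simulated data. Python 3.11.15, numpy 2.4.6, pandas 2.3.3, scipy 1.17.1, numba 0.67.0 and matplotlib 3.10.9 were used. Spans came from RefSeq (GRCh38.p14; 9350 genes found by symbol, 169 by gene number, 576 by synonym, 51 not found), exons from GENCODE release 44. Single-column ratios used a pseudocount of 0.5 reads. The 95% intervals of single-column ratios and of ratios between genes are exact binomial and cover counting error only. Those given with a log2 change from limma voom are the change plus or minus the normal quantile times its standard error. They are not adjusted for the number of genes. The design foresaw raw counts or recovered reads, and the latter applied. The genes named are the 10 factors, *IWS1*, the 3 largest falls and 3 smallest falls or rises in each list among genes with at least 100 control reads, and the 3 genes most like the lowest and the highest factor. *MAFK*, *MAFG*, *LDB1*, *SPI1*, the neighbours and the other heme, globin, iron and survival genes were chosen after their values were seen. Factors and lists were chosen with earlier results of these data known. Alternatives were other scalings, read minimums, thresholds, pseudocounts, limma-trend, the control entered 2 times and single dIWS1 columns.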

Additional observations from a re-analysis of the deposited data

How the results depend on the processing

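The number of factors called lower, 5, was 2 with the library scale recentred on the median gene and 2 when scaled by total reads, and the number called higher went from 0 to 1 in both settings, where the change of scale is the cause by construction. *GATA1* turned from -0.34 to 0.08 when recentred and to 0.1 when scaled by total reads. Relative to the median gene, 2 factors were lower at an adjusted p under 0.05 and 1 at under 0.01. The median log2 change of the factors was -0.47, and it was -0.05 when recentred. With column 1 or column 2 left out it ran from -0.5 to -0.44, and no test was possible with 1 column on each side. With the control entered 2 times *GATA2* was called lower (adjusted p = 0.00414 from limma voom), and *KLF1* was called lower than the median gene (adjusted p = 0.00438 from limma voom), but a copied control holds no spread. No minimum or one of 100 reads changed no call of a factor, and pseudocounts of 0 and 5 reads left the median at -0.47. The order of control levels by reads, with no length, moved all 7 ranks: *MYB*, *NFE2*, *LMO2*, *TAL1*, *GATA1*, *GATA2* and *KLF1*, with *GATA1* going from 3 to 5. No paired analysis was possible because the recovered columns carry no replicate numbers. With 295 control reads, *KLF1* limits what can be said of it relative to the median gene.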
